A study of Mus musculus with 3 samples.

Results

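The 7 genes described here, linked to neurotrophic factors, nerve growth or synapses, were followed through the stromal cells of mouse inguinal fat. Ntf3, Bdnf and Gdnf encode neurotrophic ligands, and Ptn and Mdk the pleiotrophin and midkine pair of heparin-binding growth factors. Gap43 and Nptx2 encode a growth cone protein and a secreted neuronal pentraxin. These members are 7 of the 32285 genes counted, and they were selected on values measured in these same cells. The question was which class of fat stromal cell holds which transcript. Single-cell 3′ RNA libraries had been made from CD31- CD45- stromal vascular cells of subcutaneous inguinal fat, that is, cells sorted free of endothelial and blood cells after collagenase digestion. The mice were male wild-type C57BL/6J animals aged 8 weeks. There was 1 condition with 3 libraries from 3 mice, called mouse 1, mouse 2 and mouse 3 here.

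Cells with more than 500 genes and under 5% mitochondrial UMIs (unique molecular identifiers, each counting 1 captured transcript) were kept, which left 12984, 6414 and 15179 cells with a median of 7392.5, 12192.5 and 6667 UMIs. The classes were defined on UMI counts of 8 genes. A progenitor had at least 3 UMIs of Dpp4 and Pi16 together and at most 1 of Icam1 and Fabp4. A preadipocyte had at least 4 of Icam1 and Fabp4 and at most 1 of Dpp4. A regulatory cell had at least 1 UMI each of Clec11a and Fmo2 and at most 1 each of Fabp4 and Dpp4. A Cited1 cell had at least 2 UMIs of Cited1 and at least 2 of Fabp4 and Lpl together. A cell that passed the Cited1 gate was counted there, and a cell in several of the other gates was left out. Over the 3 mice the gates held 19793 progenitors, 5338 preadipocytes, 1051 regulatory cells and 349 Cited1 cells, and 7787 of the 34577 kept cells passed no gate. The libraries shared between 52 and 81 cell barcodes in each pair.

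The labels of 3 gates held up against the markers of their own class. All 6 progenitor markers and all 6 preadipocyte markers were highest on average in the gate of that name, as were 4 of 5 regulatory markers. The Cited1 gate did not behave as 1 class. Only 3 of 7 markers of committed preadipocytes were highest in it, and 4 were highest in the preadipocyte gate. Of its 212, 64 and 73 cells in mice 1, 2 and 3, 170, 23 and 34 also passed the preadipocyte gate. A further overlap of 9, 24 and 16 cells was with the progenitor gate. In mouse 2 its level of Car3, a carbonic anhydrase of adipose cells, was 13.8 CPM (UMIs of a gene scaled to a common total of 1e+06 UMIs). In mice 1 and 3 that level was 231 and 238 CPM. The gate is therefore called by its rule, the Cited1 gate. All 5 cell cycle markers were highest on average in it, with a sum that ran from 2.88 to 289 CPM over mice, and the part of cycling cells in its values was not tested. All 5 endothelial markers were highest in the preadipocyte gate, with a sum of 1.88 to 30.9 CPM over mice. The muscle gene Acta1 reached 102 CPM there in mouse 2. In the regulatory gate 4 of 5 leukocyte markers were highest, with a sum of 1.91 to 14.1 CPM. Of 7 mural markers, 3 were highest in the preadipocyte gate and 2 in the regulatory gate. Their sums there were 68.7 to 96.2 and 54.1 to 107 CPM, against 23.3 to 33.4 CPM in progenitors. The largest of them in both gates was Abcc9, at 47.5 and 52.2 CPM on average. The part of such cells in these gates was not tested. Another group of cells stood apart. Keratin genes Krt8 and Krt18 and the epithelial adhesion gene Epcam, at 2 or more UMIs together, marked 4, 3 and 57 cells of the 3 mice. The Ptn levels of the Cited1 and regulatory gates are given with and without them.

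Neurotrophins are secreted proteins that bind Trk receptor kinases and the shared receptor encoded by Ngfr, and they keep sensory and sympathetic neurons alive. White fat is supplied by sympathetic nerves, and tissue cells along their path are a source of such factors. Pleiotrophin and midkine bind heparan sulfate and signal through syndecans, receptor phosphatases and Lrp1. Gap43 is not secreted. It sits on the inner face of the growing nerve tip and is known mainly from neurons.

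The members fell into 2 opposed pairs and 3 genes apart from them. Ntf3 and Mdk were high in preadipocytes and low in progenitors, while Gap43 and Nptx2 were high in progenitors and low in preadipocytes. Ptn was highest in the Cited1 gate but sat in very few cells, and Bdnf and Gdnf were low in every class. In 3 of the 7 members (Ntf3, Gap43 and Nptx2) the lowest mouse of 1 class lay above every mouse of the other 3 classes. Among 12262 genes at 1 CPM or more that the gates did not read, 16.3% had such a class. The classes and the members were chosen from these cells, so their levels by class are a description with no test. Each level is a sum of UMIs over the cells of a class in 1 mouse, divided by all UMIs of those cells, and errors are the SD over 3 mice.

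**Figure D1:**
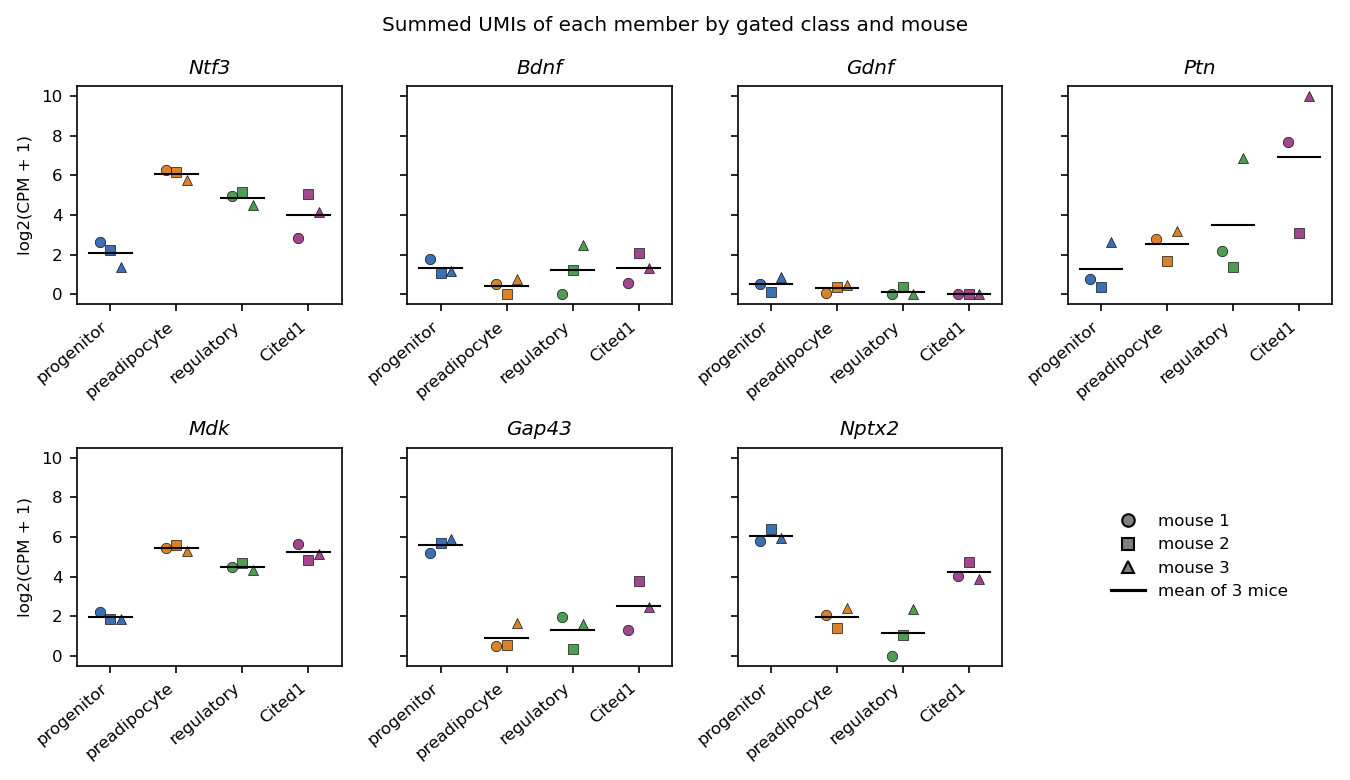
Level of each member, as log2(CPM + 1) of the summed UMIs, in the 4 gated classes. Each point is 1 mouse and each bar is the mean of 3 mice. Ntf3 and Mdk sit low in progenitors, Gap43 and Nptx2 sit high there, and the 3 Ptn points of the Cited1 gate spread from 7.43 to 1034 CPM.

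Ntf3 encodes neurotrophin-3, the main ligand of the receptor TrkC. It lies on the minus strand of chromosome 6, from 126101412 to 126166910 in GRCm38 (mm10), with no other annotated gene over it. Both RefSeq promoter windows of Ntf3 are shown, since Ntf3 had a leading class and also differed in each of the 3 splits described further on. Each runs from 250 bases before to 50 bases after a transcript start, on the gene's own strand, GRCm38.p6. The first lies at chr6:126164911-126165210 and the second at chr6:126166695-126166994. Capitals would mark a cAMP response element (TGACGTCA), an AP-1 site (TGANTCA) or an NBRE, the element of the Nr4a receptors (AAAGGTCA), on either strand.

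Ntf3 window 1: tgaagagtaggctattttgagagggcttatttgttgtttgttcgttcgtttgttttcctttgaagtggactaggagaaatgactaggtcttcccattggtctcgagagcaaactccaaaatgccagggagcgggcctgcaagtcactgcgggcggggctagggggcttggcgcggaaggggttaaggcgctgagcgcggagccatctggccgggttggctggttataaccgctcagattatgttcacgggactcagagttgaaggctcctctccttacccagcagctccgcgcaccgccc
Ntf3 window 2: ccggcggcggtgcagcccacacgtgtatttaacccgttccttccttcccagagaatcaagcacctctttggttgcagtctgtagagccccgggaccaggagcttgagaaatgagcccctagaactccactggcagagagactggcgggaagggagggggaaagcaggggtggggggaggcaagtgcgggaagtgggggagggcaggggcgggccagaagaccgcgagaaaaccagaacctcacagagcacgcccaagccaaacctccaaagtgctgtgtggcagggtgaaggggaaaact

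Neither window holds any of the 3 motifs, so no base is in capitals. Of all 32851 RefSeq windows of the same length, 1.79% hold the cAMP element, 7.81% the AP-1 site and 1.51% the NBRE. The G and C content of the windows was 55.7% and 61.0%.

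In preadipocytes Ntf3 reached 77.1, 71.2 and 53.3 CPM in mice 1, 2 and 3, a mean of 67.2 ± 12.4 CPM (SD, n = 3). Regulatory cells followed at 29.7, 35.2 and 21.8 CPM. The Cited1 gate gave 6.24, 32.9 and 16.6 CPM, and progenitors gave 5.25, 3.76 and 1.62 CPM. Preadipocytes stood above regulatory cells in each mouse, by 1.20 ± 0.18 on the log2(CPM + 1) scale, and above progenitors by 3.98 ± 0.37. Regulatory cells and the Cited1 gate overlapped in range, although regulatory cells were the higher in each of the 3 mice, by 2.08, 0.096 and 0.38. The share of cells with an Ntf3 UMI gave the same order for the extremes. After each cell was thinned to 3000 UMIs, it was 21.4%, 18.7% and 13.1% of preadipocytes (exact 95% intervals from 19.7 to 23.3, 16.7 to 20.9 and 11.6 to 14.7) and 1.39%, 1.01% and 0.449% of progenitors. Unthinned, it was 39.0 ± 10.4% and 2.46 ± 1.28%. A rough gauge of free RNA in droplets was taken from 64 cells with at least 3 endothelial markers. The sort should have removed these cells, and their median was 2220.5 UMIs. Of these, 6.25% held an Ntf3 UMI, at 14.0 CPM pooled over mice (exact Poisson interval 3.80 to 35.7). The progenitor values of Ntf3 lie within or below this interval, the regulatory and Cited1 values lie within it, and the preadipocyte values lie above it in each mouse. The gauge pools 33, 29 and 2 cells of mice 1, 2 and 3, so it says little about mouse 3. Its cells were also shallower than those of the gates, whose medians were 4575 UMIs or more, so CPM is compared at unlike depth. The gauge rests on 4 Ntf3 UMIs, and no doublet caller was run on its cells. Progenitors of the same libraries lay below its 14.0 CPM in each mouse, so it is not a measured level of free RNA. The part of free RNA in the lower values was not tested. These intervals cover counting error only.

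Mdk encodes midkine. It lies on the minus strand of chromosome 2, from 91929805 to 91932297, with no gene over it. Mdk was at 42.7, 46.7 and 37.9 CPM in preadipocytes and at 49.5, 27.6 and 34.6 CPM in the Cited1 gate. The ranges of these 2 classes overlapped and their order differed between mice, so which of them led was not resolved. Of the Cited1 cells, 170 of 212, 23 of 64 and 34 of 73 also passed the preadipocyte gate. Regulatory cells lay lower at 21.2, 24.9 and 19.2 CPM, which was 0.93 ± 0.05 below preadipocytes on the log2(CPM + 1) scale. Progenitors were at 3.56, 2.63 and 2.58 CPM, 3.47 ± 0.23 below preadipocytes. A Mdk UMI was found in 11.3 ± 0.98% of thinned preadipocytes and 0.759 ± 0.126% of thinned progenitors. In the endothelial marker cells Mdk was at 10.5 CPM (2.16 to 30.6).

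Ntf3 and Mdk shared a class, with no clear tie between them in its cells at this depth, which was not tested. Among thinned preadipocytes, Mdk was found in 12.8%, 11.2% and 10.7% of cells with Ntf3 and in 12.1%, 11.4% and 10.2% of cells without it. The preadipocyte gate held 18.0% of all kept UMIs but 52.8% of Ntf3 UMIs and 51.4% of Mdk UMIs, as means over mice. A further 33.3% of Ntf3 UMIs and 28.5% of Mdk UMIs were in cells that passed no gate. In those cells Mdk was found in 9.97%, 10.2% and 6.72% of cells with Ntf3 and in 5.99%, 5.73% and 4.89% of cells without it.

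Gap43 was measured almost only in progenitors among the 4 classes. It lies on the minus strand of chromosome 16, from 42248442 to 42340651, and the microRNA gene Mir6540 lies on the same strand within it. Progenitors held 35.3, 51.0 and 59.0 CPM. The Cited1 gate held 1.44, 12.7 and 4.51 CPM, from 3, 12 and 3 UMIs. Preadipocytes held 0.417, 0.445 and 2.11 CPM and regulatory cells 2.83, 0.273 and 2.08 CPM. No mouse of another class came near the lowest progenitor value, and the difference between progenitors and preadipocytes was 4.70 ± 0.45 on the log2(CPM + 1) scale. A Gap43 UMI was found in 9.28%, 11.9% and 15.1% of thinned progenitors, and in 0.195%, 0.224% and 0.279% of thinned preadipocytes. In endothelial marker cells it was at 6.98 CPM (0.845 to 25.2).

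Nptx2 is an immediate early gene of neurons whose secreted protein gathers glutamate receptors at synapses. It lies on the plus strand of chromosome 5, from 144545902 to 144557478, with no gene over it. Progenitors held 53.8, 84.4 and 61.3 CPM. The Cited1 gate came next at 15.4, 25.5 and 13.5 CPM. In mouse 2 that value rests on 24 UMIs, of which 19 were in 1 cell. Preadipocytes held 3.16, 1.61 and 4.30 CPM, and regulatory cells held 0, 1.09 and 4.16 CPM. The progenitor and Cited1 gates did not overlap and differed by 1.84 ± 0.22 on the log2(CPM + 1) scale, whereas preadipocytes and regulatory cells overlapped in range, with preadipocytes the higher in each mouse by 2.06, 0.32 and 0.037. The gap between the progenitor and Cited1 gates rose to 3.28 when the gates were read on thinned cells. The level in endothelial marker cells was 14.0 CPM (3.80 to 35.7), an interval that holds all 3 Cited1 values and lies below all 3 progenitor values. It rests on 4 UMIs, and the preadipocytes of each mouse lay below 14.0 CPM, so it is not a measured level of free RNA.

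Nptx2 was less even between cells than Gap43. Cells with 10 or more Nptx2 UMIs numbered 16, 98 and 26 in the 3 mice and held 5.44%, 41.5% and 7.02% of its UMIs, and mouse 2, with the deepest cells, stood apart. For Gap43 there were 3 such cells in all. The progenitor gate held 55.8% of all kept UMIs, 89.0% of Gap43 UMIs and 87.7% of Nptx2 UMIs. Among thinned progenitors, Nptx2 was found in 9.005%, 13.6% and 10.7% of cells with Gap43 and in 11.3%, 13.0% and 12.4% of cells without it. The direction differed between mice, and no test was run across cells.

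Ptn encodes pleiotrophin. It lies on the minus strand of chromosome 6, from 36714929 to 36810220, with no gene over it. The Cited1 gate held 205, 7.43 and 1034 CPM of Ptn, a mean of 415 ± 545 CPM. The SD exceeded the mean, and mouse 2 lay within the range of the other classes. Regulatory cells gave 3.54, 1.64 and 119 CPM, preadipocytes 5.84, 2.23 and 8.14 CPM, and progenitors 0.726, 0.289 and 5.26 CPM. Only 464 of 34577 kept cells had a Ptn UMI. Cells with 10 or more numbered 21, 5 and 49 and held 57.7%, 79.4% and 88.3% of all Ptn UMIs in their mouse.

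Most Ptn UMIs were in the keratin and Epcam positive cells. Those 64 cells, 0.185% of the kept cells, held 3077 of 4315 Ptn UMIs, or 71.3%. Within them Ptn was at 5327, 6041 and 5207 CPM, against 7.19, 1.63 and 4.35 CPM in all other cells. They were unevenly spread over mice and held 22.2%, 74.9% and 85.3% of the Ptn UMIs of mice 1, 2 and 3. Without them the Cited1 gate of mouse 3 fell from 1034 to 83.7 CPM and the regulatory gate of mouse 3 from 119 to 5.27 CPM, while the Cited1 gates of mice 1 and 2 kept the same values. The mean of the Cited1 gate without them was 98.7 ± 99.7 CPM. The other members had 0.226% or less of their UMIs in these cells.

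Mouse 1 differed in that most of its Ptn-rich cells were keratin negative. Of its 21 cells with 10 or more Ptn UMIs, 15 were in the Cited1 gate and 2 were keratin positive. Its Ptn-rich cells carried Postn, a matrix protein of fibroblasts, at 7019 CPM and the growth factor gene Fgf10 at 849 CPM, close to the 6851 and 771 CPM of its whole Cited1 gate. In mice 2 and 3 the Ptn-rich cells carried Postn at 283 and 642 CPM, and in mouse 3 42 of these 49 cells were keratin positive. The keratin-negative Cited1 cells of mouse 3 carried Ptn at 83.7, Postn at 2815 and Fgf10 at 453 CPM. Those of mouse 2 carried 7.43, 1467 and 74.3 CPM. Summed over all Ptn-rich cells of a mouse, keratin positive or not, Krt8 was at 653, 2988 and 1796 CPM in the 3 mice. In mouse 1 all of that Krt8 came from the 2 keratin positive cells. The prolactin receptor gene Prlr was at 306, 1971 and 3282 CPM in the same sums. The thinned share of Cited1 cells with a Ptn UMI was 21.9%, 1.56% and 24.7% (exact 95% intervals 16.5 to 28.1, 0.0396 to 8.40 and 15.3 to 36.1), and 0 of 64 endothelial marker cells had one. The Cited1 gate held 9 keratin positive cells in mouse 3 and 0 in mice 1 and 2, and the share of mouse 3 counts these 9 cells.

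**Figure D2:**
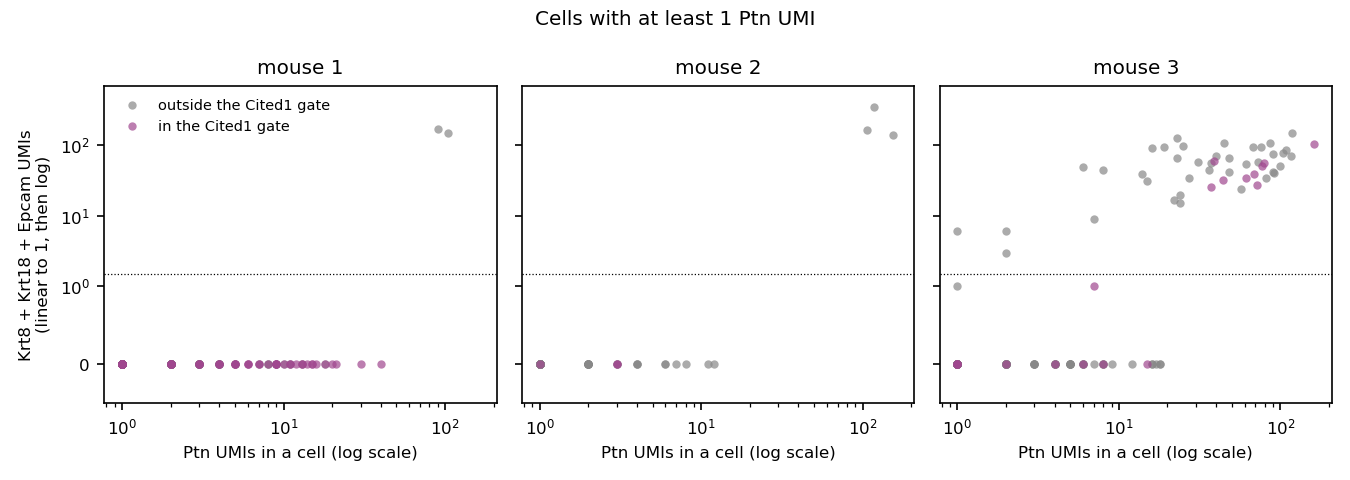
Cells with at least 1 Ptn UMI in each mouse, with Ptn UMIs on a log axis and the sum of Krt8, Krt18 and Epcam UMIs on an axis that is linear to 1 and logarithmic above. The dotted line is the limit of 2 UMIs for a keratin positive cell and colour marks the Cited1 gate. Mouse 3 has more cells above the line than mouse 1 or mouse 2, and the Cited1 cells of mouse 1 lie at 0 keratin UMIs.

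Bdnf, the ligand of TrkB, and Gdnf, the ligand of the Gfra1 and Ret receptor pair, were low throughout. Bdnf lies on the plus strand of chromosome 2, from 109674700 to 109727007, with the antisense gene Gm45346 on the other strand. Gdnf lies on the plus strand of chromosome 15, from 7810846 to 7837575. All kept cells together held 415 Bdnf UMIs in 233 cells and 109 Gdnf UMIs in 74 cells. Bdnf was at 2.48, 1.08 and 1.27 CPM in progenitors and 0.417, 0 and 0.678 CPM in preadipocytes. For the 0 of mouse 2, 3 counts would have been 0.167 CPM. The values of the 2 classes did not overlap, but the counting intervals of the closest values did. These were 0.310 to 1.29 CPM in preadipocytes of mouse 3 and 0.773 to 1.46 CPM in progenitors of mouse 2. In the regulatory gate Bdnf ran from 0 to 4.68 CPM and in the Cited1 gate from 0.480 to 3.18 CPM. Gdnf was at 0.447, 0.0788 and 0.812 CPM in progenitors and at 0 in the 3 Cited1 gates, where 3 counts would have been 1.44, 3.18 and 4.51 CPM. A Gdnf difference between these classes was therefore not detectable at this depth. Bdnf UMIs were clumped in mouse 2, where 2 cells held 36.9% of them.

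The promoter table held 4 of the 7 members (Ntf3, Bdnf, Gdnf and Ptn) in 12 windows, of which 1 held a motif. That Bdnf window, at chr2:109676782-109677081 on the plus strand, is shown because Bdnf was among the genes that differed in the split by Nr4a and Fosl1 described further on. Its 1 match to the pattern TGANTCA, which starts at base 99 of the window, is in capitals. The match reads TGAATCA, with A at the middle base, where the pattern allows any base. Of all windows, 7.81% hold this pattern.

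Bdnf window 2: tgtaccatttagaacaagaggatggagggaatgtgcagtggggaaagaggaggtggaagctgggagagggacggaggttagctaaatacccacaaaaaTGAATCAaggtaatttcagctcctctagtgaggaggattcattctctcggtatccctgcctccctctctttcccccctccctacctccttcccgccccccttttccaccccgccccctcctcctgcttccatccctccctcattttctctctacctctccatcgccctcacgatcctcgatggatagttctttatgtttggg

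A match to these letters is a description of the window and does not show that a factor binds there. The other 6 Bdnf windows, both Gdnf windows and the Ptn window held none of the 3 motifs.

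The genes whose levels ran most like a member over the 12 sums of class and mouse were read off among 7778 genes at 10 CPM or more. The 12 points share 3 libraries and 4 gates, so these correlations are descriptions. Ntf3 ran with G0s2 (r = 0.97), an inhibitor of lipolysis, and with Rap2b and Plpp1. Mdk ran with Tmem119 (r = 0.996), with the amine oxidase gene Aoc3 (r = 0.99) and with C1qtnf12. Gap43 ran with Ptgs2 (r = 0.98), the inducible cyclooxygenase, and with Ston2 and Slc6a6. Nptx2 ran with Basp1 (r = 0.97), another growth cone protein, and with Ptgis and Eef1b2. Ptn ran with Ahsa1 (r = 0.94), Msantd2 and Hsdl2, but its values rest on the few cells named above. For Bdnf and Gdnf, both at low counts, the closest genes were Fgl2 (r = 0.87), Mfap4 and Stk17b, and Gramd3 (r = 0.85), Phldb1 and Rai14.

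Around the members, 47 other ligands, receptors and processing genes of these pathways were read, and 31 had enough counts for a test. Each class was set against the mean of the other 3 in edgeR's quasi-likelihood test with the mouse as a block and Benjamini-Hochberg adjusted p over all genes tested. Adjusted p-values here describe classes cut from the same cells' RNA. In progenitors 8 of the 31 were higher and 12 lower, against 26.0% and 23.1% of all 12507 genes. In preadipocytes 6 were higher and 10 lower, against 13.3% and 12.1%. In regulatory cells 8 were higher and 7 lower, against 12.4% and 10.4%. In the Cited1 gate 4 were higher and 3 lower, against 4.79% and 4.29%. The median log2 fold change of the list ran from -0.17 to 0.10 over the 4 classes and that of all genes from -0.02 to 0.01. With the preadipocyte gate read on thinned cells 10 genes were called there in place of 16, and the count in the Cited1 gate ran from 2 to 12 as single mice were left out.

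Among ligands, Metrnl, a secreted meteorin-like factor, was highest in progenitors, at 449, 477 and 538 CPM, a mean of 488 ± 45 CPM, against 119 ± 25 CPM in regulatory cells. No progenitor value overlapped another class (log2 fold change 1.54, SE 0.09, edgeR adjusted p = 3.9e-08). It was lower in regulatory cells than in the other classes (log2 fold change -1.15, SE 0.11). Of the 14 ligands listed, 6 could be tested. Ntf5 was at 0.16 CPM or less on average in every class. Nenf, a neudesin factor, was higher in regulatory cells by 0.64 on the log2 scale (SE 0.08). It was lower in preadipocytes (log2 fold change -0.37, SE 0.08, edgeR adjusted p = 0.0048), a call lost without mouse 3 and without the mouse block. In the Cited1 gate it was also lower, by 0.38 (edgeR adjusted p = 0.015). That call was lost without mouse 1, without mouse 3, without the mouse block, with library size only and without the 10% deepest cells. Its mean was 322 CPM in preadipocytes and 359 CPM in the Cited1 gate.

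Receptors divided the classes in another way. Ntrk3, the neurotrophin-3 receptor TrkC, was highest in regulatory cells, at 7.78, 12.02 and 13.0 CPM (log2 fold change 1.93, SE 0.28, edgeR adjusted p = 0.00032). In preadipocytes, where Ntf3 was highest, Ntrk3 was at 1.55, 1.45 and 2.34 CPM and lower than in the other classes (log2 fold change -1.68, SE 0.29), a call lost with gates read on thinned cells. Ntrk2, the BDNF receptor TrkB, was above 60 CPM in every class and mouse, and was lower in the Cited1 gate (log2 fold change -0.98, SE 0.17), a call lost without mouse 3. It was at 189 ± 12 CPM in progenitors. Long and truncated forms of TrkB cannot be told apart by these 3′ counts.

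Preadipocytes carried Ret, the kinase that answers to GDNF, at 8.76, 14.2 and 14.6 CPM, above every other class and mouse (log2 fold change 2.73, SE 0.28, edgeR adjusted p = 1.8e-05). Sort1, the proneurotrophin co-receptor sortilin, was higher there (log2 fold change 1.83, SE 0.22) and lower in progenitors (-2.04, SE 0.27). Ngfr was called higher in preadipocytes (log2 fold change 2.59) and in the Cited1 gate (3.41), and lower in progenitors (-3.92) and regulatory cells (-2.08). Its level was set by 1 library. In preadipocytes it was 54.5 CPM in mouse 1 and 2.84 and 2.19 CPM in mice 2 and 3, and in the Cited1 gate 78.8 CPM against 6.37 and 6.02. All 4 Ngfr calls were lost without the mouse block, the one in the Cited1 gate also without mouse 1, and the one in regulatory cells also without mouse 1, without mouse 3 and with gate limits raised by 1 UMI. Schwann cells also carry Ngfr. Of their other markers, Sox10 was at 0 in the preadipocyte and Cited1 gates of all 3 mice, and S100b was at 87.4, 32.9 and 19.6 CPM in the Cited1 gate.

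Syndecan 1, a receptor of pleiotrophin and midkine encoded by Sdc1, was at 230, 27.6 and 82.8 CPM in the Cited1 gate (log2 fold change 3.74, SE 0.29, edgeR adjusted p = 1.2e-05). It stayed so without the keratin positive cells (3.79). It was higher in preadipocytes by 0.94 (SE 0.25), lost without mouse 3 and without the mouse block, and lower in progenitors by a log2 fold change -3.39. Sdc4 was higher in regulatory cells (log2 fold change 1.21, SE 0.14). In the Cited1 gate, Ptprs, a receptor phosphatase, was higher (0.82) and Sdc2 lower (-0.68), both lost without mouse 1 or mouse 3. Pcsk6, a convertase that cleaves growth factor precursors, was at 331 ± 20 CPM in progenitors and at most 105 CPM in any mouse of another class (log2 fold change 3.55, SE 0.17, edgeR adjusted p = 7.3e-09). It was lower in preadipocytes (-1.32) and regulatory cells (-2.55). Basp1 was higher in progenitors (1.76, SE 0.07), and lower in preadipocytes (-0.78) and regulatory cells (-1.12).

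**Figure D3:**
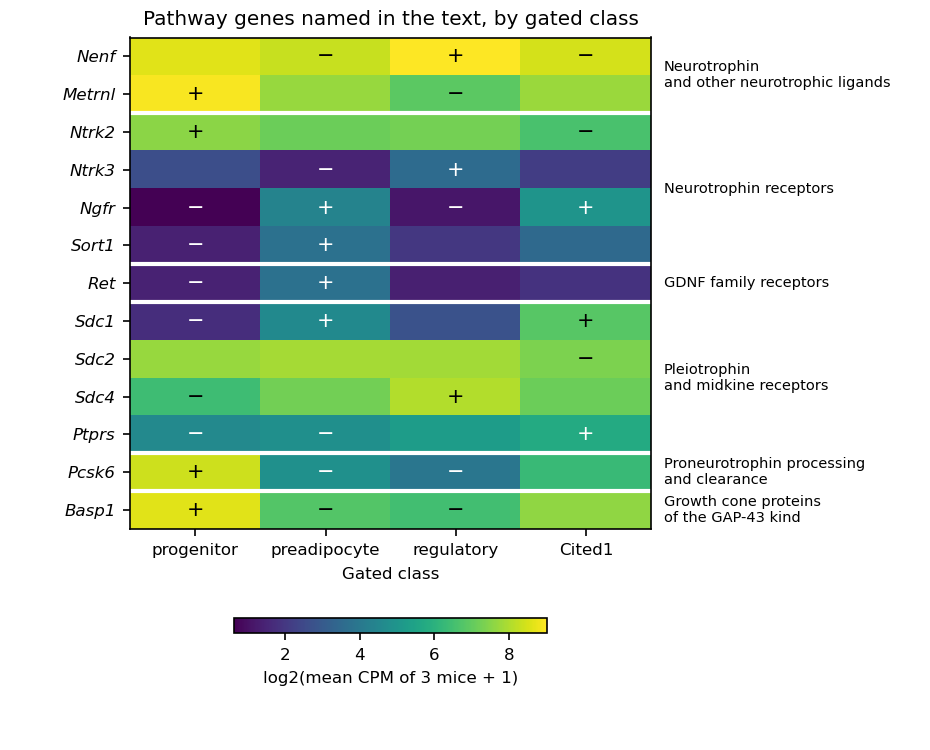
Mean level of the tested pathway genes named in the text in the 4 gated classes, as log2(mean CPM of 3 mice + 1), grouped by role. A plus or minus sign marks edgeR adjusted p under 0.05 for the class against the mean of the other 3. Metrnl and Pcsk6 carry a plus sign in progenitors, Ntrk3 in regulatory cells, and Ret in preadipocytes.

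The study's own question concerned ICAM1+ preadipocytes with high or low CD44, so preadipocytes were split by Cd44 RNA, which no gate had read. Cells with at least 2 Cd44 UMIs numbered 261, 306 and 319 and cells with 0 numbered 1460, 747 and 1138. This is a split on RNA and not the protein sort. The gate counts Icam1 and Fabp4 together, so a cell could pass on Fabp4 alone. Their mean levels in it were 529 and 1301 CPM. The cells split here are therefore not the same set as the ICAM1+ cells of the study. Of 4 members tested, 1 was higher in the Cd44-high cells (Ptn) and 2 were lower (Ntf3 and Mdk), against 12.6% and 6.23% of all 11251 genes. Ntf3 was at 86.1, 83.2 and 61.1 CPM in Cd44-low and 47.1, 49.0 and 36.6 CPM in Cd44-high preadipocytes. The arms did not overlap, and the log2 fold change was -0.69 (SE 0.09, edgeR adjusted p = 4.6e-05). Without the mouse block its adjusted p was 0.21.

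Mdk was at 44.4, 53.9 and 41.6 CPM in Cd44-low and 39.4, 28.4 and 23.0 CPM in Cd44-high cells (log2 fold change -0.56, SE 0.13, edgeR adjusted p = 0.0063). The Mdk call was lost under 5 of 13 alternatives. Among them were gates read on thinned cells (adjusted p = 0.77), the fit without the 10% deepest cells (0.10) and that without mouse 2 (0.10). Ptn was at 2.59, 1.85 and 7.10 CPM against 26.5, 2.89 and 11.1 CPM (log2 fold change 1.87, SE 0.41, edgeR adjusted p = 0.0049), and without mouse 1 the log2 fold change was 0.74 (adjusted p = 0.13). The Ptn call was also lost in DESeq2 (0.25) and without the mouse block (0.37). Without the keratin positive cells the Ptn log2 fold change was 2.23 (edgeR adjusted p = 0.00063). Nptx2, at 2.62 ± 1.21 and 4.37 ± 2.68 CPM, did not pass the test (adjusted p = 0.17). Cd44-high cells were deeper, with medians of 8781, 13668.5 and 7560 UMIs against 7826.5, 12594 and 7099.5. Of the pathway list 8 of 26 tested were higher in Cd44-high cells and 1 lower, against 12.6% and 6.23% of all genes. Sdc4 rose from 119, 94.6 and 175 CPM to 194, 175 and 265 CPM (log2 fold change 0.83, SE 0.08, edgeR adjusted p = 3.1e-06) and Metrnl by 0.64 on the log2 scale (SE 0.07), and both calls were lost without the mouse block.

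Cells were also split by the immediate early genes Nr4a2, Nr4a3 and Fosl1, which are transcribed within a short time of a stimulus. Tissue digestion, which these cells went through, also raises such genes, and its part in the split was not tested. Progenitors with at least 3 UMIs of the 3 genes together numbered 2839, 1652 and 4642, and those with 0 numbered 2562, 901 and 2045. Of 6 members tested, 3 were higher in the first arm (Nptx2, Gap43 and Bdnf) and 2 lower (Ntf3 and Mdk), against 12.4% and 9.45% of all 12530 genes. Nptx2 rose from 26.9, 22.2 and 31.0 CPM to 80.7, 132 and 79.9 CPM. The arms were far apart in each mouse, with a log2 fold change of 1.94 (SE 0.21, edgeR adjusted p = 0.00096). It was the 1 member whose call held under all 13 alternatives run on this split, with the largest adjusted p at 0.035. Median depth differed as well, at 7803, 12462.5 and 7023 UMIs in the high arm and 6807, 11448 and 5937 in the other.

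After thinning to 3000 UMIs the Nptx2 pattern remained in steps. Among cells with 0 UMIs of the split genes 7.78%, 6.38% and 7.43% held Nptx2. With 1 to 2 UMIs the shares were 11.3%, 13.8% and 12.4%, and with 3 or more they were 19.5%, 25.1% and 17.5%. Gap43 moved far less, from 32.1, 45.5 and 47.0 CPM to 37.0, 54.8 and 60.6 CPM (log2 fold change 0.41, SE 0.06, edgeR adjusted p = 0.0043), and the call was lost with gates read on thinned cells (adjusted p = 0.063) and without the mouse block (0.57). Bdnf stayed low in both arms, at 1.52, 0.701 and 0.530 CPM against 2.84, 1.33 and 1.73 CPM (edgeR adjusted p = 0.015), and its call was lost on thinned cells (0.55), in DESeq2 (0.058), without mouse 3 (0.059) and without the mouse block (0.32).

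Ntf3 moved the other way in progenitors, from 7.78, 6.41 and 3.62 CPM to 3.53, 2.08 and 0.880 CPM (log2 fold change -1.36, SE 0.19, edgeR adjusted p = 0.0027). All these values are below the 14.0 CPM of the endothelial marker cells, and those of 3.80 CPM or more lie within its interval. Without the mouse block its adjusted p was 0.27. Mdk fell from 4.62, 3.31 and 3.71 CPM to 2.97, 2.32 and 2.05 CPM (log2 fold change -0.55, SE 0.17, edgeR adjusted p = 0.047), and this call was lost under 7 of 13 alternatives, among them without mouse 1 (0.15) and without mouse 3 (0.24). Ptn did not pass the test (adjusted p = 0.63), and its direction turned without mouse 3, in DESeq2 and without the keratin positive cells, while with gates read on thinned cells it was lower in the high arm (log2 fold change -1.64, adjusted p = 0.0048).

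**Figure D4:**
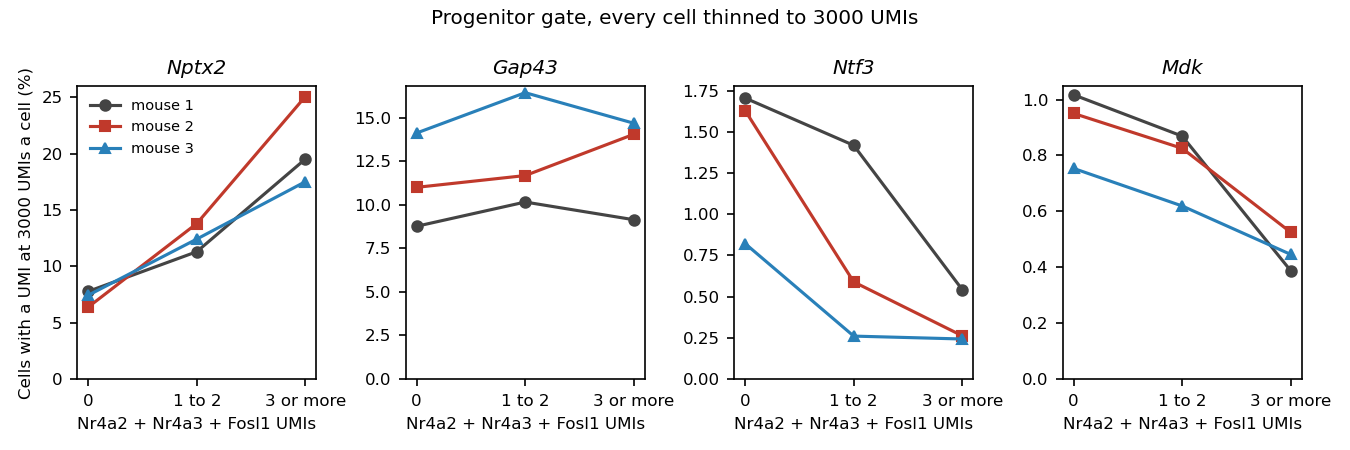
Share of thinned progenitors with a UMI of Nptx2, Gap43, Ntf3 or Mdk, by the UMIs of Nr4a2, Nr4a3 and Fosl1 in the same thinned cell, with 1 line for each mouse. Nptx2 climbs over the 3 steps in each mouse, from 6.38% to 25.1% in mouse 2, while the Gap43 lines stay within 8.76% to 16.4%.

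In preadipocytes the same split gave small high arms of 45, 116 and 127 cells. Of 4 members tested, 1 was higher (Ptn) and 2 lower (Ntf3 and Mdk), against 7.61% and 3.32% of all 11029 genes. Ntf3 fell from 81.4, 82.3 and 61.8 CPM to 56.1, 27.8 and 24.3 CPM (log2 fold change -1.20, SE 0.17, edgeR adjusted p = 3.1e-06). The arms did not overlap, and without the mouse block the adjusted p was 0.070. Mdk fell from 43.2, 49.1 and 40.5 CPM to 34.7, 22.8 and 28.4 CPM (log2 fold change -0.69, SE 0.18, edgeR adjusted p = 0.0081), which was lost without mouse 2 (adjusted p = 0.49) and under 5 other alternatives. Ptn went from 4.59, 1.93 and 9.42 CPM to 2.67, 5.55 and 25.3 CPM on 1, 10 and 25 UMIs, with overlapping arms (log2 fold change 1.27, SE 0.40, edgeR adjusted p = 0.033). The Ptn call was lost under 5 of 13 alternatives, among them without mouse 2 (0.13) and without mouse 3 (0.60). Nptx2 was at 2.50 ± 1.34 and 8.53 ± 6.52 CPM (log2 fold change 1.53, adjusted p = 0.075), and with gates read on thinned cells it passed the test (3.41, adjusted p = 0.00029). Few cells are left in such an arm. Of preadipocytes gated before thinning, 10, 18 and 39 kept 3 or more UMIs of the split genes at 3000 UMIs. After thinning, Nptx2 was found in 0, 0 and 4 of them.

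Whether the split acted differently in the 2 gates was tested in 1 fit of the 4 arms. None of 6 members passed it in edgeR, 1 of them had an unadjusted p under 0.05 (Gap43, 0.039), and 1.07% of 12745 genes were called. For Ntf3 the difference between the gates was -0.18 (SE 0.35), and for Mdk 0.12 (SE 0.26), on the log2 scale.

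Of the pathway genes, 7 of 31 were higher and 4 lower in the high arm of progenitors, against 12.4% and 9.45% of all genes. In preadipocytes 6 of 23 passed, each of them higher in the high arm. Of all genes there, 7.61% were higher and 3.32% lower. Metrnl was higher in both gates. It rose by 0.53 on the log2 scale (SE 0.09) in progenitors, a call lost without the mouse block. In preadipocytes it rose from 168, 193 and 196 CPM to 358, 366 and 383 CPM (log2 fold change 1.06, SE 0.10, edgeR adjusted p = 1.1e-09), with arms that did not overlap. Ntrk2 rose in progenitors from 174, 143 and 146 CPM to 227, 207 and 208 CPM (log2 fold change 0.61, SE 0.06, edgeR adjusted p = 0.00097), a call lost without the mouse block. Ret moved the other way there, from 4.19, 3.61 and 3.18 CPM to 0.731, 0.710 and 0.733 CPM (log2 fold change -2.19, SE 0.21, edgeR adjusted p = 0.00066), and was called under all 13 alternatives.

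**Figure D5:**
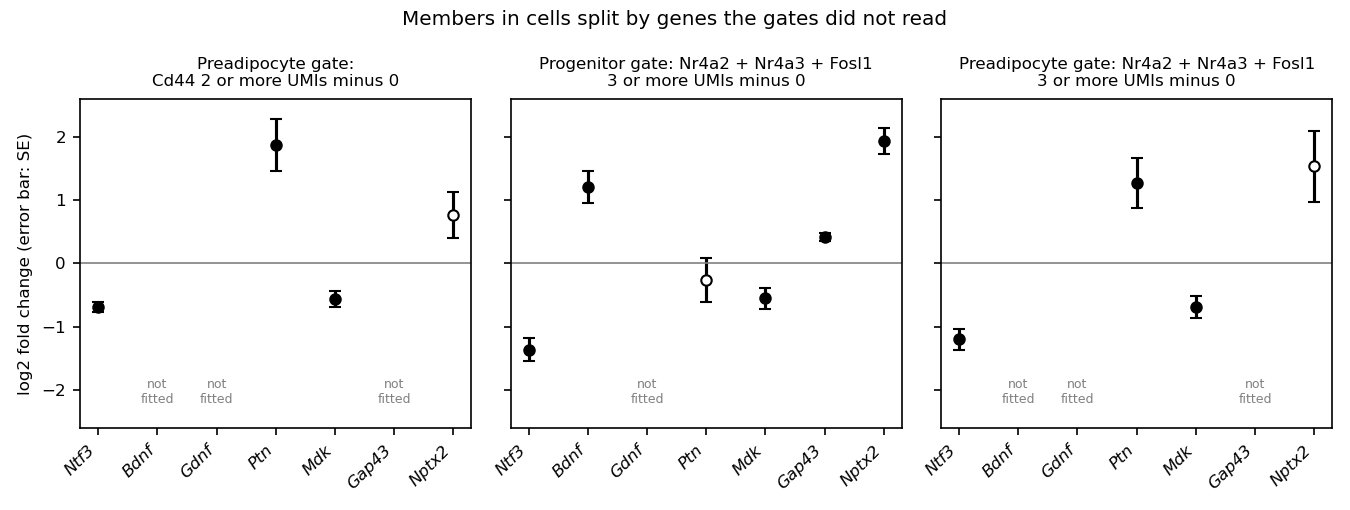
Log2 fold change of each member, with its SE, between arms of cells split by genes the gates did not read. Filled points have edgeR adjusted p under 0.05, open points do not, and members with too few counts are marked as not fitted. Ntf3 and Mdk lie below 0 in all 3 splits, and Nptx2 in progenitors lies at 1.94.

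The regulatory and Cited1 gates were not split. Cells with at least 3 Schwann cell markers, which the sort did not remove, numbered 38 of 34577 and held 17 Ntf3, 17 Mdk, 33 Ptn, 3 Gap43 and 3 Nptx2 UMIs. Cells with at least 3 mural markers numbered 137 and held 51 Ntf3, 41 Mdk, 76 Ptn, 34 Gap43 and 16 Nptx2 UMIs. Pooled over mice, Ntf3 was at 39.6 CPM in them (29.5 to 52.1) and Ptn at 59.0 CPM (46.5 to 73.9). Cells with at least 3 cell cycle markers numbered 46 and held 12 Ntf3, 23 Mdk, 10 Ptn, 37 Gap43 and 11 Nptx2 UMIs.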

How the data were processed

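Single-cell 3′ RNA libraries (10x Genomics, v2 chemistry per the labels) of CD31- CD45- inguinal stromal cells from 3 wild-type mice were analysed. The deposited values are raw UMI counts per gene and cell barcode, made by the authors with Cell Ranger against mm10. The submitters' processing notes give version 2.1.1 and the matrix header gives 4.0.0. No deposited barcode had under 500 UMIs. No doublet caller was run. A cell that passed the Cited1 gate was counted there, and other cells in several gates were left out.

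Counts were summed per mouse and class and scaled to CPM (1e+06 UMIs). The members, gates and lists were chosen with earlier results of these data known. Tests used edgeR 4.0.16 (R 4.3.3): filterByExpr, TMM scaling, quasi-likelihood F test, mouse as a block, Benjamini-Hochberg adjusted p under 0.05, genes used by a gate or split left out of calls. SE was the log2 fold change divided by the square root of F. The block is the library itself: sums of the same mouse deviated together in each fit (correlation of deviations 0.30 or more). The tests were checked on simulated data. Pathway genes were named if they passed and reached 10 CPM in a class, at most 8 a class. Some genes that the rule names are not reported here, but all stay in the counts. Genes like a member are the 3 with the highest Pearson r of log2(CPM + 1). Shares were thinned to 3000 UMIs with shallower cells left out, and carry exact Clopper-Pearson intervals. The floor is 3 counts. UMI depth was 94816520, 78108414 and 99328725 in kept cells, and intervals cover counting error only. DESeq2 1.42.0 was an alternative. Removal of keratin positive cells, TMM-scaled levels and the 4-arm fit were added after the data were seen. Gene positions are from GENCODE M21, promoters from RefSeq (GRCm38.p6).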

Additional observations from a re-analysis of the deposited data

How the results depend on the processing

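Of 150 recomputed main values and counts, 121 kept their direction and stayed near the value reported, 27 moved and 2 reversed. Of 179 recomputed values of single members, 139 stayed on the same side of the threshold, 35 lost the call, 2 gained it and 3 reversed. The cause was not tested for any of these. The replicate block is the mouse. Without the replicate block the genes called fell from 2116 to 15 in the Cd44 split, from 2741 to 25 in the Nr4a and Fosl1 split of progenitors and from 1205 to 142 in that of preadipocytes, and the pathway genes called from 16 to 8 in preadipocytes and from 7 to 3 in the Cited1 gate. With gates read on thinned cells 574 genes were called in the Cd44 split, 355 in the preadipocyte split and 10 pathway genes in preadipocytes. DESeq2 called 743, 1281 and 585 genes in the Cd44, progenitor and preadipocyte splits, and a limit of 5 UMIs called 744 in the last. With gate limits raised by 1 UMI 11 pathway genes were called in the Cited1 gate, and with no low-count filter 15. Leaving out 1 mouse at a time gave 1068 to 1892, 1499 to 3584 and 692 to 1341 genes in the 3 splits, 10 to 14 pathway genes in preadipocytes and 2 to 12 in the Cited1 gate. The lowest of these came without mouse 2 in the Cd44 split and without mouse 3 in the others. On the log2(CPM + 1) scale, raised gate limits turned the Mdk difference between preadipocytes and the Cited1 gate to -0.092 and moved Ptn between the Cited1 and regulatory gates to 5.65, Gap43 between progenitors and the Cited1 gate to 4.20, and Nptx2 there to 2.76. That Nptx2 difference was 3.28 on thinned cells and 2.08 with TMM scaling, which was chosen after seeing the data. Leaving out single mice gave -0.040 to 0.43 for the Mdk difference. The Ptn change in the progenitor split, -0.26, turned to 0.44 without keratin positive cells (also chosen after seeing the data) and 0.96 in DESeq2, and ran from -0.43 to 1.27 without single mice. Low counts limit Bdnf and Gdnf, and few cells limit the Cited1 gate, which held 212, 64 and 73.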
